A study of Mus musculus with 12 samples.

Results

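The glutathione S-transferase (GST) family was followed through colonoids exposed to hemin. Members were the genes of the deposited table whose symbol begins with Gsta, Gstk, Gstm, Gsto, Gstp, Gstt, Gstz or Mgst followed by a digit, together with *Gstcd*, *Gm3776* and *Gm10639*. There were 29 members among 54532 listed genes, 6 in the alpha subclass, 8 in mu, 3 in pi, 4 in theta, 2 in omega and 3 in the microsomal group, with *Gstz1* (zeta), *Gstk1* (kappa) and *Gstcd* standing alone. Colonoids are organoids grown from colonic epithelial stem cells, here from mice 8 to 12 weeks old and kept in L-WRN conditioned medium. Control colonoids came from *Hmox1* fl/fl mice, in which both *Hmox1* alleles are floxed, and the others from *Hmox1* ΔIEC mice (labelled KO), which carry the same floxed alleles with Vil1 Cre, a recombinase driven in epithelium by the villin promoter. Each genotype received vehicle or 200 µM hemin for 24 hours, and poly-A RNA was sequenced as 3 libraries for each of the 4 conditions. The genotype was written as Hmox1 KO /Vil1 Cre for the libraries labelled KO except replicate 3 with hemin, written Hmox1 fl/fl /Vil1 Cre. Nothing in the labels ties the libraries to separate mice or cultures, so the p-values cover the spread among these libraries alone, which may be technical.

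GST enzymes join the thiol of glutathione to electrophiles, which marks lipid peroxidation products, drugs and carcinogens for export from the cell. The cytosolic subclasses act as dimers, the microsomal members are membrane proteins of another fold, and the kappa enzyme sits in mitochondria and peroxisomes. In the gut epithelium the family forms part of the barrier to dietary toxins, several alpha and mu proteins also bind heme, and many rodent GST genes are known targets of NRF2, the transcription factor that acts through antioxidant response elements.

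Most members lie in tandem arrays, given here in GRCm38 coordinates, the build that the submitters' processing notes call mm10. The alpha array at chr9:78182774-78355788 holds *Gsta4*, *Gsta1*, *Gm3776*, *Gm10639* and *Gsta2*, with *Gsta3* apart at chr1:21240589-21265661. The mu array of 7 genes spans chr3:107895821-108044894, the pi array chr19:4035407-4059446, the theta array chr10:75774115-75837424 and the omega pair chr19:47854970-47886324. The remaining mu member, *Gstm2-ps1* at chr5:116632908-116633564, is annotated as a processed pseudogene.

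Within the alpha array, 4 genes are close copies, and this bears on every value given for them, since fragments from shared stretches could have been assigned to any of them or dropped. The coding sequences of *Gsta1* and *Gm3776* matched at 99.7% of aligned positions with 565 identical bases in a row, *Gm10639* and *Gsta2* at 98.5%, and *Gsta1* and *Gsta2* at 97.6%. *Gsta1* matched *Gsta3* at 74.1% and *Gsta4* at 66.8%. Of gap-free 90-base stretches, positions 575 to 664 of the *Gsta1* coding sequence (GENCODE M21) held the most sites where a copy differed from it (7). The stretch is shown for each copy, with each base that differs from *Gsta1* in capitals.
Gsta1: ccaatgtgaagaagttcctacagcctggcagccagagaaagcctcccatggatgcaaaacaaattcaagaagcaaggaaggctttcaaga
Gm3776: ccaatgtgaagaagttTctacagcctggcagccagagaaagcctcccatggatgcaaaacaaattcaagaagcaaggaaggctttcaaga
Gm10639: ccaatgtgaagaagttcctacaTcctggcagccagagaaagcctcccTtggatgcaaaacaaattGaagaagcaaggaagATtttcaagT
Gsta2: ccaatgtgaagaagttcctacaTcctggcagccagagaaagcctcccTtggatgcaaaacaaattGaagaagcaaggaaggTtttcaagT
In this window *Gm3776* differed from *Gsta1* at 1 base, *Gm10639* at 6 and *Gsta2* at 5. The 4 genes are called the *Gsta1*-like copies here, and their sum is given beside their separate values.

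*Gstp1* and *Gstp2* form a second pair of close copies, with 98.1% identity and 300 identical bases in a row, while *Gstp3* matched *Gstp1* at 72.8%. The first 90 coding bases hold 6 of their differences and are shown with the bases of *Gstp2* that differ in capitals.
Gstp1: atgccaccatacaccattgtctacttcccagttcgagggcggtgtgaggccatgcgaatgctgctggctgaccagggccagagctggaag
Gstp2: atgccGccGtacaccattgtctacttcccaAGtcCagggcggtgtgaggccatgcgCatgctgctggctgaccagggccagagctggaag
Among the other subclasses, coding identity ran from 64.0% to 85.2% in mu, from 58.4% to 75.7% in theta and from 40.3% to 50% among the microsomal genes, and was 66.9% for the omega pair.

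Because the *Gsta1*-like copies moved together with hemin, their promoters are given as well. RefSeq promoter windows (GRCm38.p6, 250 bases before to 50 after the start site) were at hand for 26 members, in 36 windows. Aligned with gaps, the 250 bases upstream of *Gsta1* and *Gm3776* matched at 89.7% of columns (236 of 263). Those of *Gm3776* and *Gm10639* matched at 97.2% (245 of 252) and those of *Gsta1* and *Gsta2* at 70.5%. Columns with a gap counted as differences. The windows of *Gsta1* and *Gm3776* begin at different points of a shared sequence, which adds such columns. The values therefore do not rank the copies by likeness. The upstream sequences of *Gsta1* (chr9:78230419-78230668, plus strand) and *Gsta2* (chr9:78347146-78347395, minus strand) are shown without the gaps of their alignment. Capitals mark bases of *Gsta2* that differ from the aligned base of *Gsta1* or face a gap. The lines thus do not match position by position.
Gsta1 upstream: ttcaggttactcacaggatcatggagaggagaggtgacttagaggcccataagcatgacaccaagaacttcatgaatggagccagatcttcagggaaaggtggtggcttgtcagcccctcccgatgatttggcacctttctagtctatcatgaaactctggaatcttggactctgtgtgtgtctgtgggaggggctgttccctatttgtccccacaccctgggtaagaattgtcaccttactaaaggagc
Gsta2 upstream: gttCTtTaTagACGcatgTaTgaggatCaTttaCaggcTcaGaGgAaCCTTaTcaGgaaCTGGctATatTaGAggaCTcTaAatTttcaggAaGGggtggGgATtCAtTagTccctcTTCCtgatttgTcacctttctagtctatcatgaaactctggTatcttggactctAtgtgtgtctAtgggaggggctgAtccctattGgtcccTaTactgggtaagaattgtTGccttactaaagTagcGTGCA
The core letters of the antioxidant response element, TGACNNNGC on either strand, occurred in 4 of the 36 windows (11.1%), against 4071 of 32851 windows of all genes (12.4%). The windows of the *Gsta1*-like copies and of the pi genes did not hold these letters. The 4 matches are shown with 10 bases on each side, the core in capitals, on the strand of the gene.
Gsta3: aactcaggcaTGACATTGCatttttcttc
Gstm5: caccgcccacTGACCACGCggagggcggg
Gstm7: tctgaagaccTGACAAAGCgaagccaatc
Mgst1: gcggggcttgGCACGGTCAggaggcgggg
They lie at chr1:21240454-21240482, chr3:107895802-107895830, chr3:107931725-107931753 and chr6:138140461-138140489 in that order, and the *Mgst1* match reads on the opposite strand. A match is a matter of letters and does not show binding. Sites written otherwise or lying outside these windows were not searched. A window without a match thus does not show that a gene lacks the element.

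The depth was 11648801 to 25101868 fragments on genes per library. FPKM are fragments per kilobase of gene, scaled by a factor for each library. With vehicle, *Hmox1*, the targeted gene, was at 7.62, 6.85 and 7.90 FPKM in control libraries and 3.14, 2.11 and 2.31 in those labelled KO. With hemin it reached 503, 483 and 382 FPKM in control colonoids and 1279, 1393 and 1271 in the KO-labelled ones, so *Hmox1* mRNA went against the KO label under hemin, and the genotype is named as labelled throughout. The table holds 1 value per gene and does not show which exons these fragments came from, so fragments of a transcript with deleted exons cannot be told apart from those of an intact one. Epithelial markers (*Epcam*, *Cdh1*, *Vil1*, *Krt8*, *Krt19*) summed to between 4972 and 8823 FPKM per library, while the summed fibroblast, immune and endothelial markers stayed under 1 FPKM in every library. *Hoxb13* and *Hoxd13*, markers of distal colon, were at 0 in the 6 control libraries and summed to between 162 and 174 FPKM in the 6 libraries labelled KO. Of the small intestinal genes *Fabp6*, *Apoa4*, *Alpi*, *Lct*, *Defa17* and *Defa24*, *Alpi* alone passed the filter on low values described next.

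Levels are FPKM. Differences are log2 fold changes of FPKM + 1, with the standard error (SE) and the adjusted p of a limma fit over the 12740 genes that reached 1 FPKM in at least 3 libraries. The added 1 shrinks the change of low genes, so ratios of mean FPKM are given for some. A gene is called where the adjusted p was under 0.05 and the log2 fold change beyond 1 in either direction. Of the 29 members 27 passed the filter. *Gstt4* had 0 fragments in 11 of the 12 libraries and 3 in the twelfth, a level that a floor of 3 fragments does not tell from 0, and *Gsto2* had 5 to 25 fragments per library.

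Summed over all members, the family stood at 1325 ± 8.48 FPKM in control vehicle libraries (SD, n = 3 here and below) and 1208 ± 37.5 in vehicle libraries labelled KO. With hemin it rose to 2379 ± 176 in control colonoids, 1.79 times the vehicle level, and to 4445 ± 161 in those labelled KO, 3.68 times the vehicle level. In bulk RNA a change in the number of cells of a type and a change in RNA per cell cannot be told apart. The subclass sums below describe the libraries and were not tested.

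The subclasses did not share 1 pattern. The pi sum was similar in both genotypes with vehicle (271 ± 9.79 and 283 ± 25.3) and rose to 1149 ± 99.1 with hemin in control colonoids and to 2104 ± 43.6 in those labelled KO, ratios of 4.24 and 7.43. The alpha sum fell with hemin from 286 ± 16.8 to 182 ± 26.1 in control colonoids, and rose from 139 ± 4.94 to 873 ± 158 in colonoids labelled KO, ratios of 0.638 and 6.27. The fall in control colonoids was that of *Gsta4*, the most abundant alpha gene with vehicle, since the log2 fold changes of the 5 other alpha genes were positive, with 1 of them called. The microsomal sum was 346 ± 2.59 and 499 ± 96.6 without and with hemin in control colonoids and 223 ± 7.48 and 625 ± 38.8 in those labelled KO.

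The mu sum followed the genotype label first, at 110 ± 4.82 and 167 ± 8.21 in control colonoids and 255 ± 7.37 and 339.7 ± 22.7 in those labelled KO. Colonoids labelled KO thus had 2.33 times the control level with vehicle and 2.03 times with hemin, and the 6 control libraries (106 to 176) lay below the 6 others (249.6 to 366). The omega sum was 273 ± 0.357 and 343 ± 7.65 in control colonoids and 264 ± 4.26 and 469 ± 18.7 in those labelled KO. Of these 6 subclasses the theta sum was lowest in every group, at 16.1 ± 0.569, 19.6 ± 0.821, 27.1 ± 1.63 and 24.2 ± 0.870 in the same order.

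**Figure D1:**
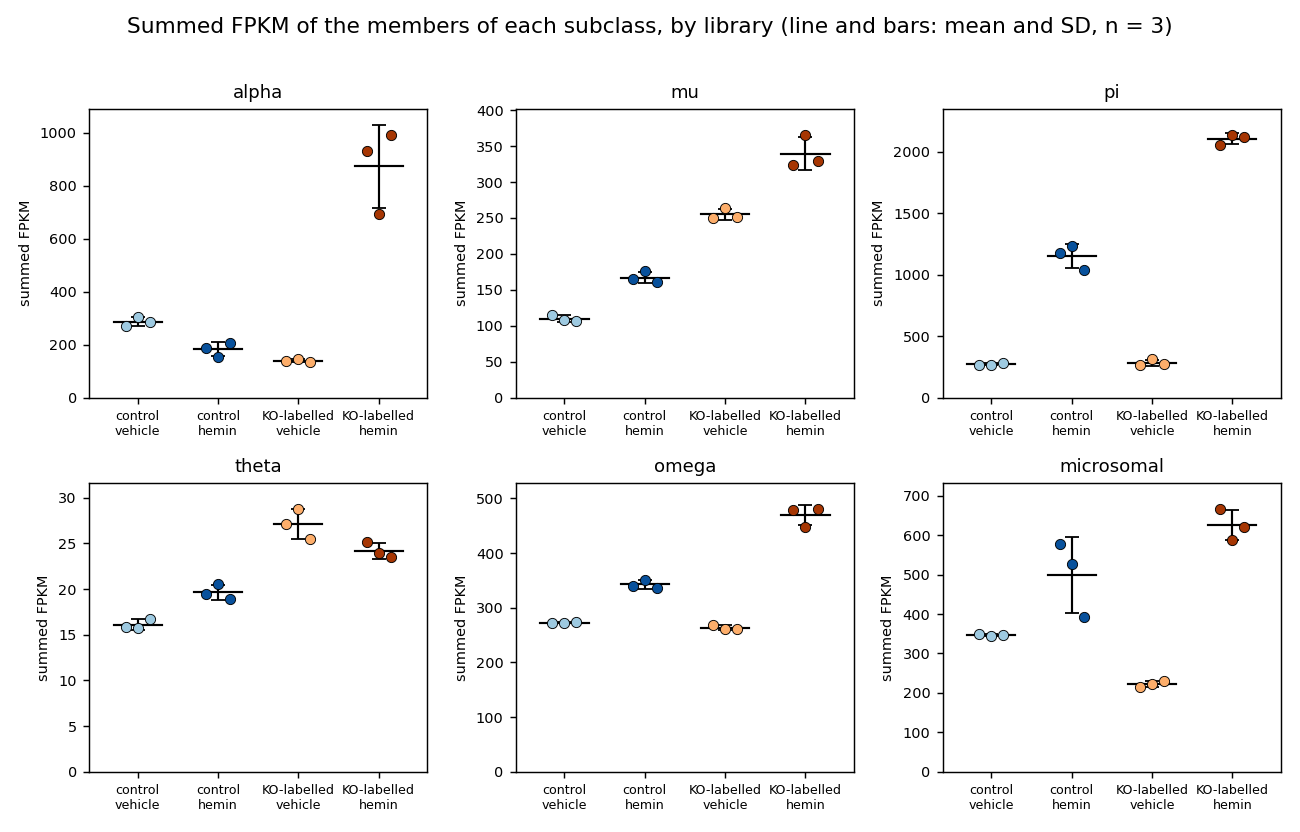
Summed FPKM of the members of 6 subclasses in each library (points), with the mean and SD of 3 libraries per group. Pi rises with hemin in both genotypes, the alpha sum falls in control colonoids, where *Gsta4* alone decreased, and rises to between 693 and 992 FPKM in the hemin libraries labelled KO, and mu is higher in both groups labelled KO.

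As shares of the family, pi went from 19.8% to 21.2% of the summed FPKM in control vehicle libraries to between 47.3% and 49.7% in control hemin libraries. In libraries labelled KO pi held 22.3% to 24.9% with vehicle and 45.7% to 50.1% with hemin. Alpha fell from between 20.4% and 22.8% to between 6.23% and 9.50% with hemin in control colonoids, and went from between 11.3% and 11.6% to between 16.3% and 21.7% in those labelled KO. The single most abundant member was *Gstp1* in all 6 hemin libraries.

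In control colonoids hemin raised 4 of the 27 members tested and lowered 2, against 2.17% of all genes tested that were called higher and 5.93% called lower. The median change of the members was 0.33, against -0.01 over all genes. In colonoids labelled KO hemin raised 10 and lowered 0, against 4.87% higher and 8.07% lower among all genes, with medians of 0.38 and -0.00. By the adjusted p alone, regardless of size, 19 members changed in control colonoids and 22 in the colonoids labelled KO, against 49.9% and 60.4% of all genes. Scaled as TPM, the same rule for calls gave 10 higher and 3 lower members in colonoids labelled KO, against 2.78% and 17.2% of all genes under that scaling. The 2 hemin comparisons share no library.

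With vehicle, 7 members were called higher and 4 lower in colonoids labelled KO than in control colonoids (3.53% and 3.27% of all genes), with a member median of 0.15. With hemin, 8 were called higher and 2 lower (3.10% and 2.91% of all genes), with a member median of 0.64 against 0.04 over all genes. The response to hemin was more positive in colonoids labelled KO for 8 members and more negative for 0 by the genotype by hemin interaction, against 2.57% and 2.56% of all genes, and as TPM for 6 and 2, against 2.01% and 4.34%. By the adjusted p alone, 20, 21 and 15 members differed in these comparisons, against 34.2%, 34.4% and 23.8% of all genes. These comparisons share groups with each other and with the 2 hemin comparisons, so their values are set side by side only. Across the 5 comparisons 21 members were called at least once and 6 were not, against 21.3% of all genes tested called at least once.

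**Figure D2:**
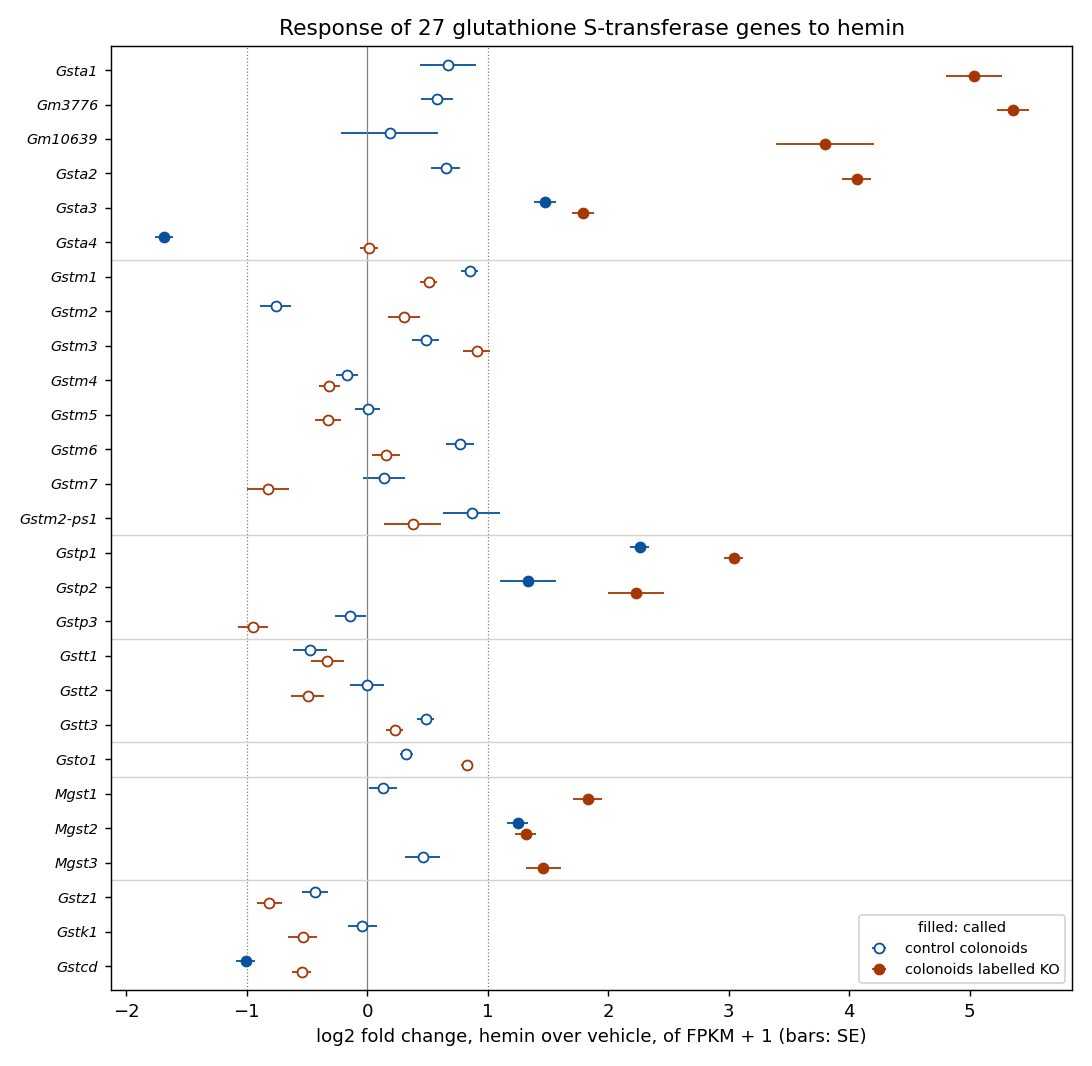
Log2 fold change of FPKM + 1 with hemin for the 27 members that passed the filter, in control colonoids (blue) and colonoids labelled KO (brown), with the SE of the limma fit; filled points were called and grey lines part the subclasses. The 4 *Gsta1*-like copies lie between 3.80 and 5.36 in colonoids labelled KO and between 0.19 and 0.67 in control colonoids, whereas *Gsta3*, *Gstp1*, *Gstp2* and *Mgst2* were called in both.

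The *Gsta1*-like copies gave the largest changes of the family with hemin in colonoids labelled KO and the largest interactions. *Gsta1*, the most abundant of these copies, was at 41.8, 53.1 and 50.9 FPKM in the control vehicle libraries and 82.5, 58.2 and 96.6 with hemin, and at 12.9, 15.6 and 11.5 in the vehicle libraries labelled KO and 539.8, 325 and 579 with hemin. The 4 groups did not overlap: the vehicle libraries labelled KO were lowest and their hemin counterparts highest, with replicate 2 below the other two. Hemin raised *Gsta1* 36.1-fold in colonoids labelled KO (log2 fold change 5.04, SE 0.23, adjusted p = 2.42e-08 by limma), against 1.63-fold in control colonoids (0.67, SE 0.23, adjusted p = 0.0338 by limma), which was not called. Between genotypes it was 3.65-fold lower in colonoids labelled KO with vehicle (log2 fold change -1.79) and 6.08-fold higher with hemin (2.57).

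*Gm3776*, whose coding sequence differs from that of *Gsta1* at 2 positions, showed the same order of groups. Its values were 15.7, 20.6 and 18.3 and 26.6, 26.8 and 29.1 FPKM in control colonoids without and with hemin, and 5.32, 3.91 and 3.26 and 213, 213 and 197 in those labelled KO. Its log2 fold changes were 0.58 with hemin in control colonoids, 5.36 in colonoids labelled KO, -1.91 between genotypes with vehicle and 2.87 with hemin, of which the last 3 were called.

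*Gsta2* and *Gm10639* were low copies that rose above 10 FPKM in a single group. *Gsta2* was at 1.44, 0.994 and 0.742 FPKM in control vehicle libraries, 2.31, 2.37 and 1.96 in control hemin libraries, 0, 0.147 and 0.151 in vehicle libraries labelled KO and 18.6, 16.5 and 16.9 in hemin libraries labelled KO. The vehicle libraries labelled KO held 0 to 3 fragments each, at or under the floor of 3, so no fold is given against them, and the fitted log2 fold change of 4.06 (SE 0.12) depends on the added constant. *Gm10639* was at 1.30, 2.29 and 2.24, 2.78, 2.28 and 1.91, 1.03, 0.808 and 2.21 and 23.9, 17.6 and 67.4 FPKM in the same order of groups. Its first 3 groups overlapped, and in the hemin libraries labelled KO replicate 3 was far above the others, which gave it the largest SE of the family (0.41 on a log2 fold change of 3.80, adjusted p = 1.27e-05 by limma).

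Summed, the 4 copies stood at 60.2, 77.0 and 72.2 FPKM in control vehicle libraries, 114, 89.7 and 129.6 in control hemin libraries, 19.3, 20.4 and 17.1 in vehicle libraries labelled KO and 796, 572 and 859.8 in hemin libraries labelled KO. Fitted as 1 gene, the sum changed by 0.65 with hemin in control colonoids (SE 0.17, adjusted p = 0.00813 by limma), below the size needed for a call, and by 5.20 in colonoids labelled KO (adjusted p = 1.88e-09 by limma). The difference between these responses was 4.55 (SE 0.24, adjusted p = 7.85e-07 by limma). The split among the copies is uncertain. Their annotated lengths differ, from 874 bases in *Gm3776* to 1177 in *Gsta2*, so the summed FPKM also depends on that split to a degree, and fragments dropped for matching several copies would be missing from it.

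The 2 remaining alpha members behaved otherwise. *Gsta3*, an enzyme known in mice for conjugating aflatoxin epoxide, rose in both genotypes, from 1.42, 1.25 and 0.972 to 5.43, 4.98 and 5.04 FPKM in control colonoids and from 2.89, 2.30 and 2.67 to 11.0, 11.2 and 12.3 in those labelled KO. The log2 fold changes were 1.48 and 1.79, and their difference of 0.31 (SE 0.13) had an adjusted p of 0.106 by limma. It was also called higher in colonoids labelled KO with hemin (1.02), a call that went under the size needed without replicate 3 of those libraries (0.98).

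*Gsta4*, the alpha enzyme that prefers the lipid peroxidation product 4-hydroxynonenal, fell in control colonoids. Its values were 207, 224 and 213 FPKM with vehicle and 66.4, 60.2 and 72.0 with hemin in control colonoids, a 3.24-fold decrease (log2 fold change -1.69, SE 0.08, adjusted p = 4.50e-08 by limma). In colonoids labelled KO it was at 115, 122 and 116 with vehicle and 126, 110.2 and 120.3 with hemin, groups that overlapped (0.01, SE 0.08, adjusted p = 0.892 by limma, and -0.33 when scaled as TPM). The control vehicle libraries were thus above, and the control hemin libraries below, all 6 libraries labelled KO. *Gsta4* was the most abundant alpha gene in both vehicle groups, and *Gsta1* in the hemin libraries labelled KO.

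**Figure D3:**
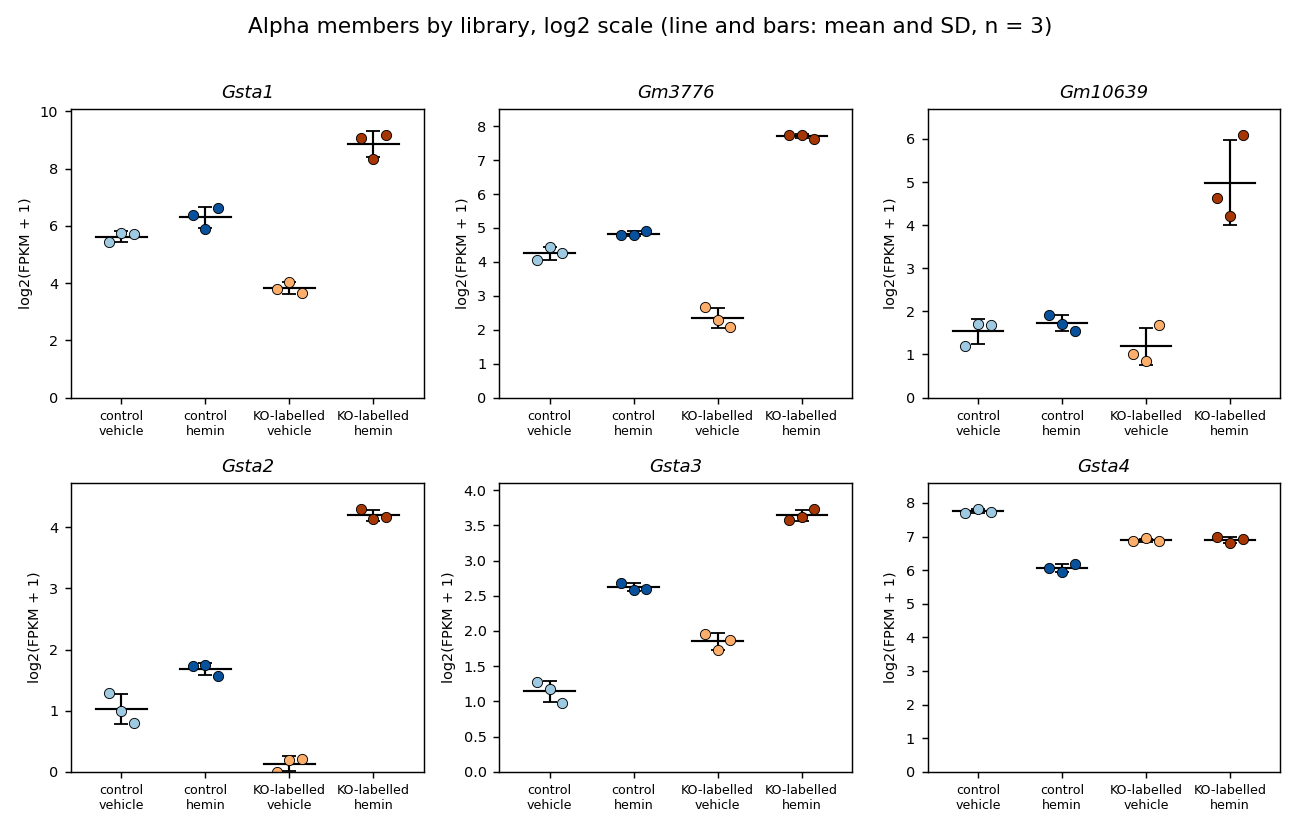
The 6 alpha genes in each library as log2(FPKM + 1), with the mean and SD of 3 libraries per group. The 4 *Gsta1*-like copies share a peak in the hemin libraries labelled KO, *Gsta3* rises with hemin in both genotypes and *Gsta4* is lowest in the control hemin libraries.

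Hemin raised *Gstp1*, the main pi enzyme and the member with the highest mean level, in both genotypes. It went from 219, 218 and 231 to 1085, 1148 and 986 FPKM in control colonoids and from 226, 269.9 and 237 to 1959, 2059 and 2028 in those labelled KO, increases of 4.82-fold and 8.25-fold. The vehicle groups overlapped and the hemin groups did not. The log2 fold changes were 2.26 and 3.04 (SE 0.08 each, adjusted p at most 7.99e-09 by limma), and the difference of 0.78 had an adjusted p of 5.84e-04 but stayed under the size needed for a call.

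*Gstp2*, its close copy, was at 15.1, 19.2 and 19.7 and 58.6, 58.4 and 29.3 FPKM in control colonoids without and with hemin, and at 13.6, 16.8 and 16.1 and 80.6, 65.0 and 83.8 in those labelled KO. Control hemin replicate 3 was well below its group. The log2 fold changes were 1.33 and 2.23, with an interaction of 0.90 (adjusted p = 0.0728 by limma).

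*Gstp3* did not follow the pair. It was at 33.3, 26.2 and 31.3 and 27.1, 29.1 and 25.7 FPKM in control colonoids, groups that overlapped, and at 22.9, 24.9 and 22.0 and 14.0, 11.7 and 9.44 in those labelled KO. With hemin it was 2.33-fold lower in colonoids labelled KO than in control colonoids (log2 fold change -1.17, SE 0.13, adjusted p = 3.36e-05 by limma).

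The 3 microsomal genes were called higher with hemin in colonoids labelled KO, and *Mgst2* in control colonoids too. *Mgst1*, a detoxifying and peroxide-reducing enzyme of the endoplasmic reticulum and the outer mitochondrial membrane, was at 54.3, 45.3 and 44.8 FPKM in control vehicle libraries and 63.0, 48.9 and 47.4 in control hemin libraries, which overlapped. In colonoids labelled KO it was at 11.6, 11.4 and 11.5 with vehicle, below every other library, and at 38.8, 49.0 and 43.3 with hemin. It was thus 4.18-fold lower than in control colonoids with vehicle (log2 fold change -1.97, adjusted p = 2.93e-07 by limma) and overlapped them with hemin (-0.27, adjusted p = 0.108 by limma).

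*Mgst2*, which can make leukotriene C4, rose by similar amounts, from 23.1, 26.6 and 26.1 to 59.7, 59.8 and 65.0 FPKM in control colonoids and from 18.7, 19.1 and 19.7 to 54.3, 43.1 and 51.0 in those labelled KO. The log2 fold changes were 1.25 and 1.32 with an interaction of 0.07 (SE 0.12, adjusted p = 0.76 by limma). *Mgst3*, the most abundant microsomal gene, was at 272, 272 and 275 and 456, 418 and 279 FPKM in control colonoids and at 185, 192 and 199 and 573, 496 and 527 in the KO-labelled ones. Control hemin replicate 3 stood near the vehicle level. The log2 fold change was 0.46 in control colonoids (not called) and 1.46 in colonoids labelled KO, and the interaction of 1.00 went under the size needed without control hemin replicate 3 (0.79), and likewise without control vehicle replicate 3, KO vehicle replicate 1 or KO hemin replicate 1 (0.95 to 1.00).

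**Figure D4:**
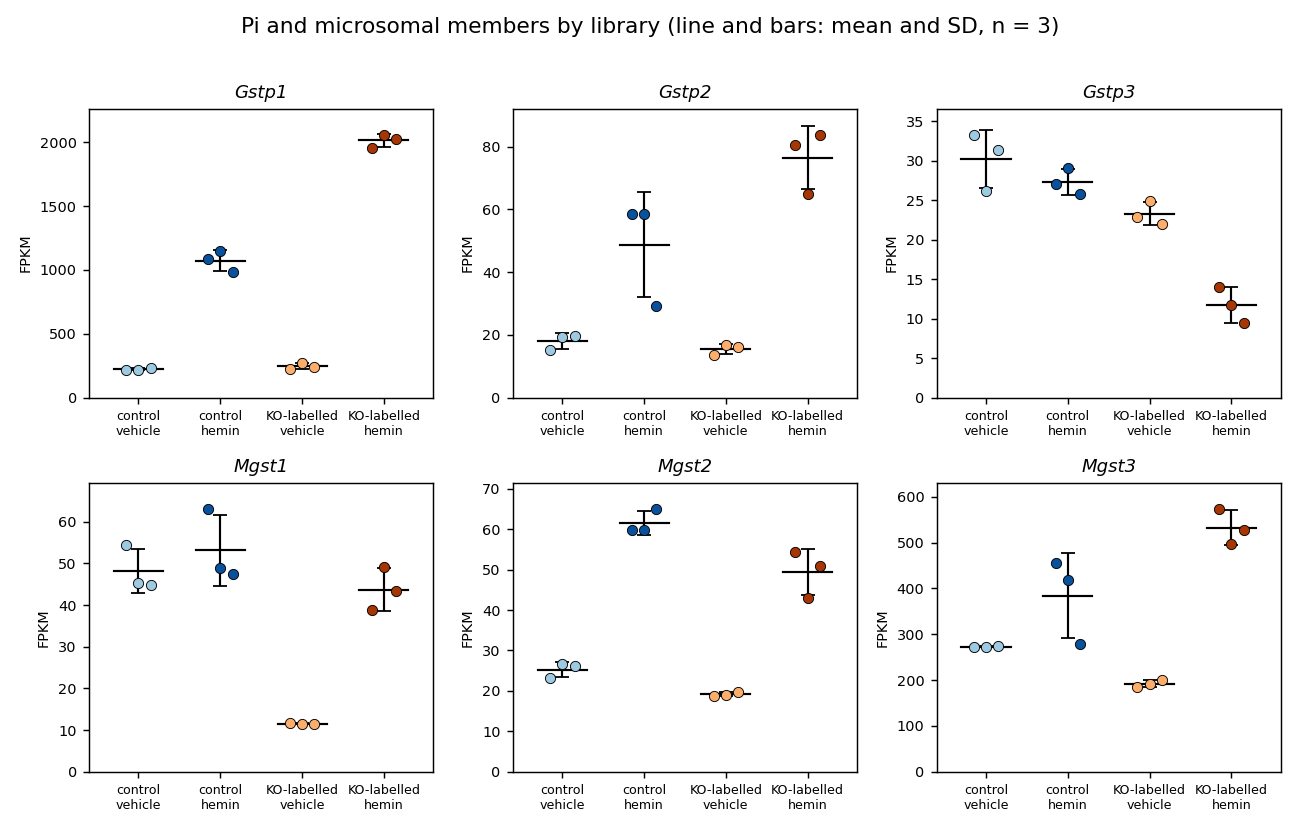
FPKM of the 3 pi and 3 microsomal genes in each library, with the mean and SD of 3 libraries per group. *Gstp1* reaches 986 to 1148 FPKM in control hemin libraries and 1959 to 2059 in hemin libraries labelled KO, and *Mgst1* is lowest in the vehicle libraries labelled KO.

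The mu members, 7 genes of detoxifying enzymes in the array on chromosome 3 and the pseudogene *Gstm2-ps1*, differed by genotype label. With vehicle, 6 of the 8 mu members were called higher in colonoids labelled KO and 0 lower (3.53% and 3.27% of all genes), and all 8 log2 fold changes were positive (0.50 to 1.60). With hemin, 2 were called higher (3.10% of all genes), and the 8 values ran from 0.29 to 2.66. With hemin against vehicle 0 of the 8 were called in either genotype, and 5 of the 8 in each genotype had an adjusted p under 0.05, near the 49.9% and 60.4% of all genes. Other settings called some of them. In control colonoids *Gstm6* and *Gstm2-ps1* were called higher by limma-voom on recovered fragments and with an added constant of 0.1, and *Gstm2* lower as TPM, and in colonoids labelled KO *Gstm7* was called lower under all 3 settings. The sign of the genotype difference held for all 8 with TPM scaling and with limma-voom on recovered fragments.

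*Gstm1*, the most abundant mu gene, was at 69.8, 67.6 and 65.8 FPKM in control vehicle libraries and 145, 154 and 148 in vehicle libraries labelled KO, a log2 difference of 1.12 (SE 0.07, adjusted p = 4.76e-07 by limma). With hemin it was at 119, 130.3 and 119.5 in control colonoids and 199, 236 and 204 in the KO-labelled ones, a difference of 0.78 that was not called. The 4 groups did not overlap.

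*Gstm2* had the largest genotype difference of the mu genes with hemin. It was at 11.7, 11.7 and 11.8 FPKM in control vehicle libraries and 6.47, 8.61 and 4.95 in control hemin libraries, but at 37.9, 39.0 and 36.0 and 46.9, 46.7 and 46.4 in those labelled KO. Colonoids labelled KO thus held 3.20 times the control level with vehicle (log2 fold change 1.60, SE 0.13) and 6.99 times with hemin (2.66, SE 0.13, adjusted p = 6.20e-08 by limma). Its interaction of 1.06 (adjusted p = 0.00194 by limma) became 0.89 without control hemin replicate 3.

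*Gstm3* was the other mu gene called higher in both treatments. It was at 7.95, 8.93 and 8.60 and 13.6, 9.68 and 14.0 FPKM in control colonoids without and with hemin and at 21.1, 21.4 and 21.6 and 39.0, 42.6 and 41.2 in those labelled KO, with log2 differences of 1.24 and 1.66. *Gstm5* was at 14.1, 10.6 and 11.4 and 12.2, 13.4 and 10.6 in control colonoids and at 26.0, 29.6 and 26.8 and 20.9, 22.5 and 21.6 in the KO-labelled ones, with differences of 1.13 and 0.80, the second not called.

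*Gstm6* and *Gstm7* were low. *Gstm6* was at 1.31, 0.912 and 0.732 FPKM in control vehicle libraries, 2.56, 2.64 and 1.94 in control hemin libraries, 2.98, 3.29 and 3.46 in vehicle libraries labelled KO and 3.74, 3.57 and 3.85 in hemin libraries labelled KO. *Gstm7* was at 1.21, 1.10 and 1.27, 1.92, 1.85 and 0.695, 4.13, 4.63 and 4.71 and 2.00, 1.99 and 2.35 in the same order, so that its vehicle libraries labelled KO lay above all others. Their log2 differences with vehicle were 1.11 and 1.32, and with hemin 0.49 and 0.36, neither called. *Gstm4*, at group means of 4.64 to 7.95 FPKM, and *Gstm2-ps1*, at 2.08 to 5.69, were called in no comparison. Fragments of *Gstm2-ps1*, a processed copy, may come from its parent gene.

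In the theta array, whose enzymes act on small halogenated compounds, *Gstt1* differed by genotype label. It was at 1.27, 0.996 and 1.33 FPKM in control vehicle libraries and 0.975, 0.443 and 0.392 with hemin, and at 5.28, 5.19 and 4.59 and 4.41, 3.78 and 3.24 in those labelled KO. The log2 differences were 1.45 with vehicle and 1.60 with hemin (adjusted p = 1.19e-05 and 6.36e-06 by limma). *Gstt3*, the theta gene with the highest mean over all libraries, was at 9.18, 8.57 and 9.22 and 12.5, 12.4 and 14.0 in control colonoids. In the KO-labelled ones it was at 9.62, 11.1 and 10.3 and 12.6, 12.6 and 11.7. Neither it nor *Gstt2* (group means 5.92 to 11.8) was called. As TPM *Gstt2* was called higher in colonoids labelled KO with vehicle (1.09, against 0.88 without that scaling).

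*Gstk1*, the kappa enzyme, was the member called lower in colonoids labelled KO with both treatments. It was at 15.5, 13.9 and 11.6 FPKM in control vehicle libraries and 11.4, 13.0 and 15.6 in control hemin libraries, which overlapped, and at 6.04, 5.63 and 5.90 and 4.11, 3.79 and 3.32 in those labelled KO. The differences were -1.09 with vehicle and -1.59 with hemin (SE 0.12 each, adjusted p at most 3.40e-05 by limma).

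**Figure D5:**
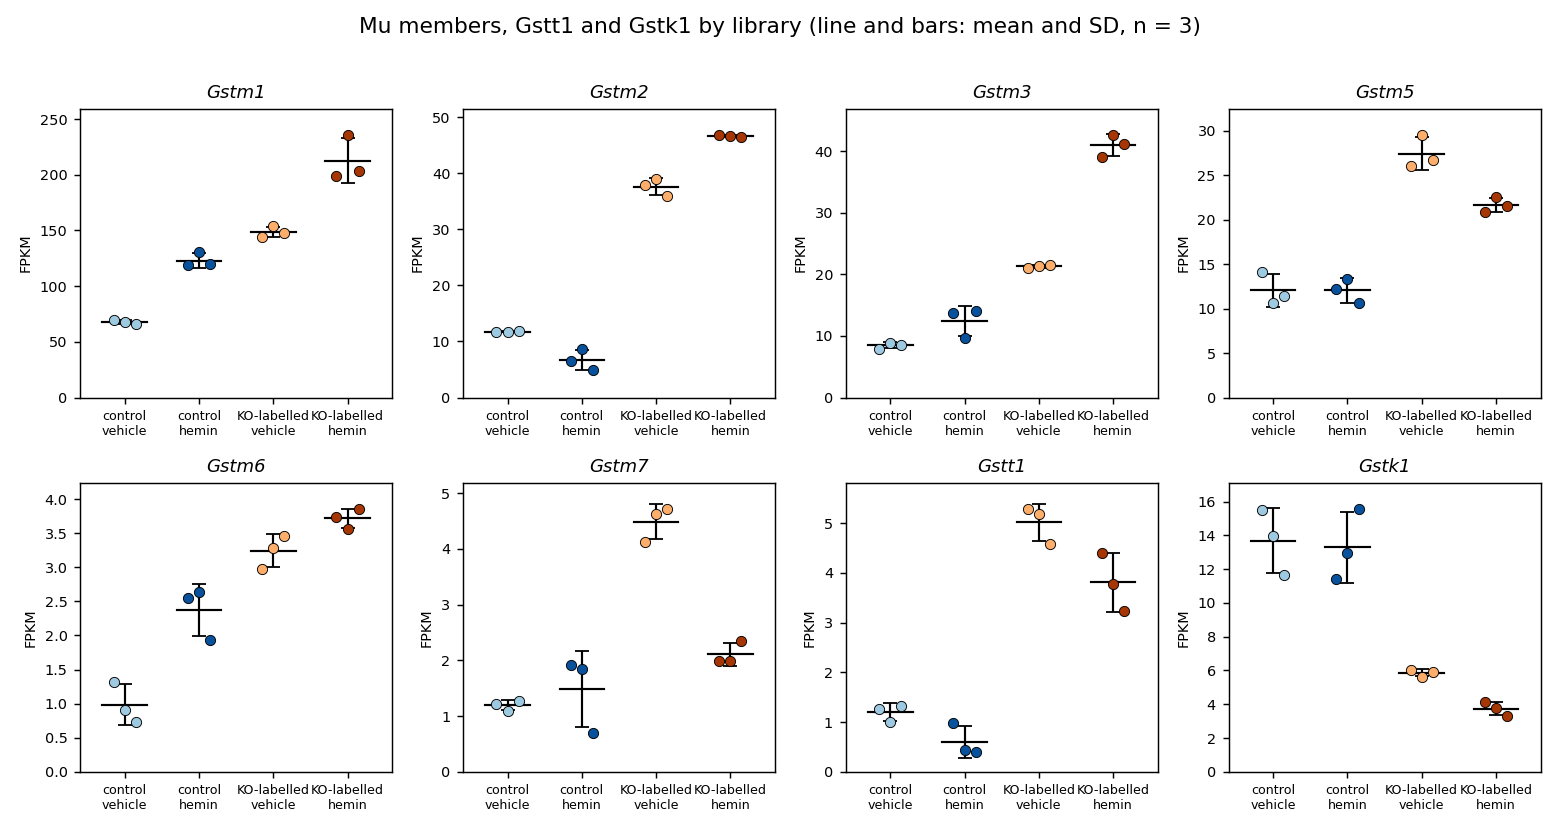
FPKM of 6 mu genes, *Gstt1* and *Gstk1* in each library, with the mean and SD of 3 libraries per group. *Gstm2* lies at 36.0 to 46.9 FPKM in the 6 libraries labelled KO and at 4.95 to 11.8 in the 6 control libraries, and *Gstk1* is the reverse, at 3.32 to 6.04 against 11.4 to 15.6.

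These genotype differences moved with the *Hoxb13* and *Hoxd13* levels given above, which also separated the 6 control libraries from the 6 labelled KO, and with enteroendocrine genes. The 4 enteroendocrine genes (*Chga*, *Chgb*, *Neurod1*, *Pyy*) summed to between 30.0 and 35.3 FPKM in control vehicle libraries and between 524 and 549 in vehicle libraries labelled KO. With hemin the sums were 18.5 to 30.3 and 382 to 475. *Pyy* made up most of the sums in colonoids labelled KO, at 396 to 417 FPKM with vehicle. Of the 4 genes, 3 were called higher in those colonoids with vehicle and 3 with hemin (3.53% and 3.10% of all genes). Of 6 colonocyte genes with vehicle, *Aqp8* (log2 difference 3.25), *Car4* (4.36) and *Slc26a3* (1.32) were called higher and *Guca2a* (-2.55) lower in colonoids labelled KO, while *Car1* (-0.69) and *Krt20* (-0.70) were not called. Of 5 goblet cell genes *Spink4* (2.10) alone was called, against *Muc2* at -0.50 and *Fcgbp* at -0.69 (3.53% of all genes were called higher and 3.27% lower). Region of origin of the colonoids and the *Hmox1* genotype cannot be told apart here.

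*Gsto1*, the omega enzyme with thioltransferase and dehydroascorbate reductase activity, was steady within groups. It was at 273, 272 and 273 FPKM in control vehicle libraries, 340.3, 351 and 335 in control hemin libraries, 268, 261 and 260.0 in vehicle libraries labelled KO and 479, 447 and 479.9 in hemin libraries labelled KO. The hemin libraries of each genotype lay above the vehicle libraries, with log2 fold changes of 0.33 and 0.83 and an interaction of 0.50 (adjusted p = 5.93e-04 by limma), none of them large enough for a call.

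*Gstz1*, the maleylacetoacetate isomerase of tyrosine breakdown, was at 6.73, 4.86 and 4.95 and 3.65, 4.12 and 3.62 FPKM in control colonoids. In the KO-labelled ones it was at 5.96, 5.97 and 6.55 and 2.92, 3.37 and 2.97, and it was called in no comparison. As TPM it was called lower with hemin in colonoids labelled KO (-1.24, against -0.81 without that scaling). *Gstcd*, named for a GST-like C-terminal domain, was at 4.58, 3.68 and 4.67 and 1.56, 1.71 and 1.63 in control colonoids and 4.68, 5.21 and 4.98 and 3.20, 3.08 and 2.98 in the KO-labelled ones. Its decrease with hemin in control colonoids (-1.01, SE 0.08) was at the edge of the call and passed under it, to between -0.96 and -0.99, without control vehicle replicate 1, control vehicle replicate 3 or control hemin replicate 1.

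The hemin response was called different between genotypes for 5 of the 6 alpha members, 2 of the 3 microsomal members and 1 of the 8 mu members tested, more positive in each case (2.57% of all genes). With the *Gsta1*-like copies summed, 4 of these alpha calls became 1. The interaction was 4.78 for *Gm3776*, 4.37 for *Gsta1*, 3.61 for *Gm10639* and 3.41 for *Gsta2*, whose adjusted p was at most 0.00105 by limma. For these copies the value combines a lower vehicle level and a higher hemin level in colonoids labelled KO, except in *Gm10639*, whose vehicle groups overlapped. For *Gsta4* (1.70, SE 0.11) it reflects the decrease in control colonoids, and for *Mgst1* (1.70, SE 0.17) the low vehicle level in those labelled KO. The other 2 were *Gstm2* (1.06) and *Mgst3* (1.00), while *Gsta3* and *Mgst2* were not called. In mu, 6 of the 8 interactions were negative, as in *Gstm1* (-0.34), *Gstm6* (-0.62) and *Gstm7* (-0.96), whose adjusted p was at most 0.0338 by limma and which were under the size for a call.

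Of 7 genes that supply glutathione, hemin raised 4 in control colonoids and 6 in the KO-labelled ones, with medians of 1.15 and 2.76. For this list and those that follow, 2.17% and 4.87% of all genes were called higher and 5.93% and 8.07% lower in the same order. *Gsr*, glutathione reductase, was called in neither genotype (0.24 and 0.89), and *G6pdx* (0.61) and *Slc3a2* (0.48) were not called in control colonoids. *Gclc*, the catalytic subunit of the rate-limiting enzyme of glutathione synthesis, was at 57.7, 56.4 and 55.6 and 334, 332 and 430.1 FPKM in control colonoids and 31.9, 30.1 and 30.5 and 769.7, 796 and 772 in the KO-labelled ones. *Slc7a11*, the cystine importer, was at 3.24, 2.82 and 2.97 and 9.86, 8.65 and 11.8 in control colonoids and 0.624, 0.690 and 0.738 and 28.0, 28.5 and 27.7 in the KO-labelled ones. The summed level of the 7 genes was 767 to 849 FPKM in control hemin libraries and 1525 to 1544 in hemin libraries labelled KO.

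Of 6 transporters that can export glutathione conjugates, hemin raised 1 in control colonoids and 5 in the KO-labelled ones. *Abcc3* was the one called in both, from 34.6, 41.9 and 38.1 to 133, 129 and 118 FPKM in control colonoids and from 25.3, 23.6 and 25.2 to 182, 157 and 179 in those labelled KO. *Abcc2* passed the filter through the hemin libraries labelled KO alone, so its call there follows from the filter and leaves 4 others. It was at 0.244, 0.210 and 0.251 FPKM with vehicle and 2.93, 2.91 and 2.44 with hemin, and stayed at 0.185, 0.168 and 0.140 in control hemin libraries. *Abcg2* was the transporter not called in colonoids labelled KO (0.17, adjusted p = 0.218 by limma).

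The enzymes that trim conjugates after export were mostly low, with 3 of 10 passing the filter. *Ggt6*, of the gamma-glutamyltransferase family, was called lower with hemin in control colonoids, from 18.8, 20.9 and 19.2 to 11.0, 8.98 and 4.80 FPKM, and 0 of the 3 were called in colonoids labelled KO. Among 12 proteins that share a fold or family with GSTs outside the rule, 6 were tested, and hemin lowered 2 in colonoids labelled KO, *Eef1g* and *Clic6*, and called 0 in control colonoids. *Clic6*, a chloride channel relative, was at 0.0216 to 0.314 FPKM in the 6 control libraries and 21.2, 23.1 and 23.1 in vehicle libraries labelled KO.

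Of 8 known NRF2 targets outside the family, which include 3 of the glutathione genes and *Hmox1* itself, hemin raised 6 in control colonoids and 8 in the KO-labelled ones. *Nqo1*, a quinone reductase often used as the marker of this pathway, was at 36.5, 31.7 and 31.9 and 266, 265 and 327 FPKM in control colonoids and 12.7, 12.4 and 13.8 and 352, 393 and 347 in the KO-labelled ones. With vehicle, 3 of the 8 were called lower in colonoids labelled KO (3.27% of all genes) and 0 higher, namely *Nqo1* (-1.30), *Slc7a11* (-1.25) and the targeted gene *Hmox1* (-1.27).

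Markers of some cell types also changed with hemin. Of the epithelial markers, *Vil1* alone was called, higher in colonoids labelled KO (1.28, against 0.83 in control colonoids). *Epcam* changed by 0.78 and 0.98 and *Cdh1* by 0.53 and 0.82 in control colonoids and those labelled KO. *Krt8* and *Krt19* had lower means with hemin in control colonoids (3578 and 2251 FPKM, against 3834 and 2529), in overlapping groups. In colonoids labelled KO their means were higher with hemin (3152 and 1954, against 2336 and 1468). The 5 goblet cell genes summed to 1271 to 1499 FPKM in control vehicle libraries and 752 to 1098 in control hemin libraries, and to 1786 to 1873 and 360.4 to 409 in those labelled KO, with 2 and 5 of them called lower (5.93% and 8.07% of all genes). The 5 stem and cycling genes summed to 88.2 to 98.0 and 30.8 to 38.3 in control colonoids, and to 124 to 129 and 46.1 to 55.9 in those labelled KO, with 2 and 4 called lower. The 6 colonocyte genes summed to 2742 to 2989 and 4835 to 7273 in control colonoids, and to 1998 to 2049 and 3379.8 to 4227 in those labelled KO, but *Car1* made up most of these sums and the members did not move together. In control colonoids *Car1* was called higher (1.18) and *Aqp8* lower (-2.00), and in colonoids labelled KO *Car1* (1.11) and *Krt20* were called higher and *Guca2a* (-1.95) and *Car4* (-3.43) lower. The part of these shifts in the GST changes was not tested.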

How the data were processed

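Poly-A RNA from 12 colonoid libraries in 4 groups (genotype label by vehicle or hemin, 3 each, grouped by the labels) was sequenced commercially. The FPKM values were deposited by the authors as 1 table of 54532 genes with gene lengths. Per the submitters' processing notes, the reads went through fastp, HISAT2 2.0.5 on mm10 and featureCounts 1.5.0-p3. How fragments matching several genes were treated is not given in the sources used here. Every value times gene length was a whole multiple of 1 fragment (tolerance 1e-06), which gave the fragments behind each value. A median-of-ratios factor computed on the FPKM was 1.01 in every library, so the values already carry a scaling of that kind.

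Genes at 1 FPKM or more in at least 3 libraries were tested on log2(FPKM + 1) with limma 3.58.1 in R 4.3.3 (trended moderation, 1 fit over the 4 groups, 8 residual degrees of freedom), with Benjamini-Hochberg adjustment over 12740 genes and 2-sided tests. The fit was also run on simulated fragments with the same spread for every gene, which checks the code and not how it suits libraries like these. The 5 comparisons were hemin in each genotype, genotype in each treatment, and the interaction. Members called at least once and the leading member of each subclass are given by library, the others by group means or fragments. Subclass sums were not tested. Alternatives covered the added constant, the filter, TPM scaling, limma-voom on fragments, the replicate block, each library left out, and the *Gsta1*-like copies summed. Promoters came from RefSeq and coding sequences from GENCODE M21 (the longest per gene, aligned with Biopython 1.88), 3 members having no promoter window there. The members and gene lists were chosen with earlier results of these data known.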

Additional observations from a re-analysis of the deposited data

Results flagged for a closer look

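The response to hemin was more positive in colonoids labelled KO than in control colonoids for 8 members and more negative for 0. Of all genes, 2.57% were called more positive and 2.56% more negative. This rests on a test of the difference itself (the interaction term of the limma fit, called at the same adjusted p and size as above). As TPM, 6 members were called more positive and 2 more negative, against 2.01% and 4.34% of all genes. Positive values mean a more positive response in colonoids labelled KO. The difference was 4.78 for *Gm3776*, 4.37 for *Gsta1*, 3.61 for *Gm10639* and 3.41 for *Gsta2* on the log2 scale. These 4 are close copies and are not independent of each other. It was 1.70 for *Gsta4*, which fell in control colonoids, and 1.70 for *Mgst1*, whose vehicle level was low in colonoids labelled KO. It was 1.06 for *Gstm2* and 1.00 for *Mgst3*, both near the size needed for a call. *Hmox1* mRNA was higher in the hemin libraries labelled KO than in the control hemin libraries, so these differences are between libraries as labelled.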

How the results depend on the processing

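Of the 45 calls of a member in a comparison, the alternatives gave 838 values on the same side of the threshold, 12 under it in the same direction and 0 reversed. A filter on a mean of at least 5 FPKM left *Gstcd*, *Gstt1*, *Gstm6* and *Gstm7* untested, and with them 5 of these calls. Dropping the filter, adding the replicate block or leaving out a library of a group not compared cannot alter a log2 fold change. Part of the agreement was therefore fixed in advance. The values leave out the fits with the copies summed, by the adjusted p alone, on the compared groups only and without the trended moderation. By the adjusted p alone, with no limit on size, 19 members changed with hemin in control colonoids and 22 in colonoids labelled KO. Between genotypes 20 differed with vehicle and 21 with hemin, and 15 differed in the interaction. Of all genes, 49.9%, 60.4%, 34.2%, 34.4% and 23.8% did so in the same order. Limma-voom on recovered fragments called 10 members with hemin in control colonoids (14.4% of all genes), and an added constant of 0.1 in place of 1 called 9 (13.8%). With the *Gsta1*-like copies summed, 5 members were called in the interaction, as 4 genes became 1.

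Over all genes, the 1033, 1648, 866, 766 and 654 calls of these 5 comparisons became 1864, 3101, 1491, 1184 and 984 as TPM, 1830, 2605, 1304, 1399 and 962 with limma-voom, 1760, 2455, 1237, 1342 and 971 with a constant of 0.1, and 629, 1043, 392, 422 and 334 among genes with a mean of at least 5 FPKM. As TPM the median of all genes moved to -0.18, -0.31, 0.15, 0.03 and -0.12, and the share of calls that were higher went from 26.8% to 15.5%, from 37.6% to 13.9%, from 52.0% to 62.4%, from 51.6% to 50.6% and from 50.2% to 31.6%. *Gm23935*, a short gene annotated as a miRNA, held 16.8%, 29.0% and 21% of the FPKM sum in control vehicle replicate 1, control hemin replicate 1 and KO hemin replicate 2. Without it, an alternative chosen after seeing the data, the medians were -0.11, -0.22, 0.08, -0.02 and -0.10. As TPM the interactions of *Gstm2* (0.97, adjusted p = 0.0682 by limma) and *Mgst3* (0.86, adjusted p = 0.0758 by limma) were no longer called.

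With each library left out in turn, 5 to 6 members were called with hemin in control colonoids, 10 to 11 with hemin in colonoids labelled KO, 11 to 12 and 9 to 10 between genotypes with vehicle and with hemin, and 7 to 9 in the interaction. Beside the calls lost that are named above, these fits added *Gsta2* between genotypes with vehicle (-1.01 without control vehicle replicate 3), *Gstp3* with hemin in colonoids labelled KO (-1.07 without KO hemin replicate 1), and *Gstm2-ps1* between genotypes with vehicle (1.06) and with hemin in control colonoids (1.14), both without control vehicle replicate 1. In the interaction they added *Gstp2* without control hemin replicate 1 or replicate 2 (1.06 each) and *Gstm7* (-1.01 to -1.21) without control hemin replicate 3, KO vehicle replicate 1 or KO hemin replicate 3. Libraries of the same number did not deviate together (mean correlation -0.04, against 0.02 for other pairs), and the replicate block left the member counts at 6, 10, 11, 10 and 8 and changed no call. At the shallowest depth of 11648801 fragments, low members such as *Gsta2* with vehicle rest on few fragments.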
